A study of Mus musculus with 11 samples.

Results

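A set of 8 genes that are commonly used to describe Ly6C-low patrolling monocytes were followed after topical imiquimod (IMQ) or vehicle in 2 tissues of the mouse, the skin and the small intestine. They were taken by symbol from the table of 45777 genes and are *Nr4a1*, *Treml4*, *Adgre4*, *Ace*, *Pou2f2*, *Cx3cr1*, *Cebpb* and *Eno3*. All 8 of the 8 symbols were found once, and all 8 passed the filter on low counts in both tissues. The genes were chosen with the effect of IMQ on these libraries already known, so their values in IMQ-treated against control mice are given as a description without a test, and calls among the 8 are only counted beside the share of all genes called. The BALB/c mice, 8 to 10 weeks old, received 62.5 mg of cream per day on the skin, which was Aldara cream with 5% IMQ in the treated group and Vaseline in the control group. The annotation gives 5 to 8 days on the back and the right ear, the methods give the back alone, and the days of each mouse are not stated. The vehicle was thus not the base of the Aldara cream. The libraries were 3 of control skin (replicates 1 to 3), 3 of IMQ-treated skin (replicates 4 to 6), 3 of control small intestine (replicates 7 to 9) and 2 of small intestine from IMQ-treated mice (replicates 10 and 11).

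Monocytes of the mouse are divided by their surface level of Ly6C. Classical Ly6C-high cells enter inflamed tissue, whereas Ly6C-low cells patrol the inner wall of small vessels, and the nuclear receptor *Nr4a1* and the transcription factor *Cebpb* are required for the latter. Several of the 8 genes are also used by other cells, since *Ace* is abundant on the intestinal brush border, *Cx3cr1* marks resident intestinal macrophages and *Eno3* encodes the enolase of skeletal muscle. IMQ is a ligand of the endosomal receptor TLR7 and induces psoriasis-like dermatitis.

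Libraries held 44995414 to 58526384 counts in total. Control skin replicate 2 carried intestinal transcripts, since 10 brush border genes had 1.23% (median) of the level of control small intestine, against at most 0.0269% in the other 5 skin libraries. For the 8 genes, the values that moved most without this library are given with and without it. The tissue labels matched their defining markers, as the summed FPKM (fragments per kilobase of transcript and of sequencing depth) of 6 differentiating keratinocyte genes was at least 2912 in skin and at most 0.92 in small intestine. Where differential calls are given, they come from edgeR's quasi-likelihood test with a Benjamini-Hochberg adjusted p under 0.05 over all genes tested. In bulk RNA, fewer cells of a type and less RNA per cell cannot be told apart.

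The 8 genes did not share one pattern of expression. *Ace* was the most abundant of them in small intestine and *Eno3* in skin. Mean FPKM of *Ace*, which encodes angiotensin-converting enzyme, was 331 ± 37.2 (SD, n = 3) in control small intestine and 333 ± 67.5 (SD, n = 2) after IMQ, against 9.85 ± 0.516 in control skin and 19.1 ± 4.87 in IMQ-treated skin (SD, n = 3 each). Its order was thus intestine above IMQ-treated skin above control skin, and the intestinal groups overlapped. *Eno3* reached 270 ± 54.6 FPKM in control skin and 230 ± 98.5 in IMQ-treated skin, against 8.05 ± 2.61 and 5.28 ± 2.66 in control and IMQ-treated small intestine, with overlap within each tissue. *Cebpb* (C/EBPβ) followed at 47.4 ± 7.53 FPKM in IMQ-treated skin, 39.5 ± 7.21 in control skin, 12.1 ± 2.31 in small intestine after IMQ and 6.67 ± 0.723 in control small intestine. The skin groups of *Cebpb* overlapped and the intestinal groups did not.

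*Nr4a1* had a mean FPKM of 20.3 ± 11.1 in IMQ-treated skin and 10.3 ± 1.53 in control skin, which overlapped, and 2.85 ± 0.599 and 1.74 ± 0.164 in IMQ-treated and control small intestine, which did not. *Cx3cr1*, the receptor of fractalkine, was at 5.34 ± 1.32 FPKM in control small intestine and 4.69 ± 0.794 after IMQ, above 1.74 ± 0.475 in IMQ-treated skin and 0.939 ± 0.316 in control skin. Groups of the same tissue overlapped for *Cx3cr1*. *Pou2f2*, *Treml4* and *Adgre4* were each highest in small intestine after IMQ, at 9.85 ± 2.15, 11.6 ± 0.795 and 5.32 ± 0.936 FPKM, without overlap with any other group. *Treml4* was lowest in control skin at 0.0855 ± 0.0834 FPKM, where the libraries held 3, 17 and 8 reads, so its level there was close to the depth limit of 3 counts.

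**Figure D1:**
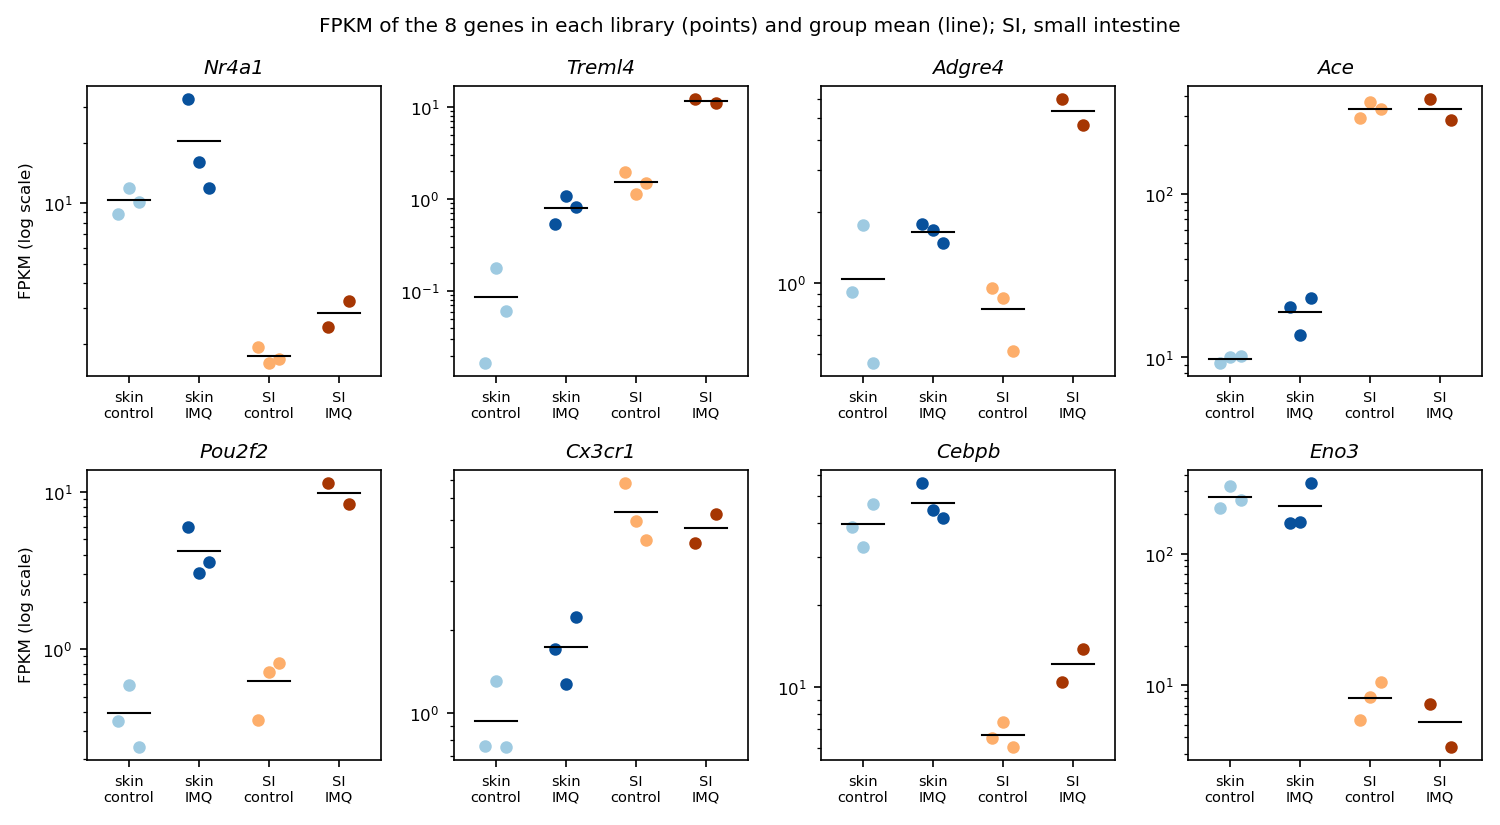
FPKM (log axis) of each of the 8 genes in the 11 libraries, by tissue and treatment, with 1 point per library and a line at the group mean. *Pou2f2*, *Treml4* and *Adgre4* were highest in IMQ-treated small intestine, *Ace* was at 285 to 381 FPKM in all 5 intestinal libraries, and *Eno3* was at 172 FPKM or more in all 6 skin libraries.

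Control small intestine was then compared with control skin, a comparison without IMQ-treated libraries. Of the 8 genes, 6 differed, 3 in each direction, against 51.9% of the 18890 genes tested, 26.2% higher and 25.7% lower in small intestine. *Ace* was 45.4-fold higher in small intestine (log2 difference 5.51 ± 0.24, SE, adjusted p = 5.4e-06). *Treml4* was higher by 4.45 ± 0.60 on the log2 scale (adjusted p = 5.6e-04), and *Cx3cr1* by 2.94 ± 0.33 (adjusted p = 2.1e-04). Without control skin replicate 2 the differences were 5.35 for *Treml4* and 3.32 for *Cx3cr1*. *Cx3cl1*, the fractalkine that CX3CR1 binds, was also higher in small intestine (2.76 ± 0.14, adjusted p = 7e-06). The other 3 were lower in small intestine. *Eno3* differed by -4.11 ± 0.27 (adjusted p = 1.8e-05), *Nr4a1* by -2.13 ± 0.22 (adjusted p = 1.4e-04) and *Cebpb* by -2.11 ± 0.14 (adjusted p = 1.9e-05). *Pou2f2* (0.70 ± 0.40, adjusted p = 0.187) and *Adgre4* (-0.02 ± 0.51, adjusted p = 0.983) did not pass the test. Without control skin replicate 2, which had the highest level of both among control skins, *Pou2f2* passed at a log2 difference of 1.22 (adjusted p = 0.0126) and *Adgre4* turned to 0.66 (adjusted p = 0.195). All 6 calls held in each of the 6 fits that leave out a library. *Ace* and *Eno3* are also expressed by cells other than monocytes, and each was higher in the tissue where a list of genes of such cells was higher. The summed FPKM of 10 brush border genes was 6552 or more in small intestine and at most 145 in skin. That of 10 skeletal muscle genes was 3071 or more in skin and at most 9.77 in small intestine. The part of these cells in the difference was not tested.

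*Pou2f2*, *Treml4* and *Adgre4* had the highest log2 fold changes of the 8 genes after IMQ in small intestine, and the 250 bases before the start that the RefSeq promoter table gives for each are shown for that reason. They are from RefSeq (GRCm38.p6), in which all 8 members had a promoter, and are written 5′ to 3′ on the strand of the gene. Capitals mark letters that match a searched motif on either strand. *Pou2f2* (Oct-2), a POU-domain factor of B cells and myeloid cells, lies at chr7:25087350-25180797 on the minus strand, and its promoter at chr7:25132461-25132710, before a start that lies 48337 bases inside the annotated gene. *Treml4*, a receptor of the TREM family on phagocytes, lies at chr17:48264200-48275607 on the plus strand, and its promoter at chr17:48264045-48264294, before a start that lies 95 bases inside the gene. *Adgre4* (EMR4), an adhesion receptor of the EGF-TM7 family, lies at chr17:55749984-55853662 on the plus strand, and its promoter at chr17:55749734-55749983.
Pou2f2: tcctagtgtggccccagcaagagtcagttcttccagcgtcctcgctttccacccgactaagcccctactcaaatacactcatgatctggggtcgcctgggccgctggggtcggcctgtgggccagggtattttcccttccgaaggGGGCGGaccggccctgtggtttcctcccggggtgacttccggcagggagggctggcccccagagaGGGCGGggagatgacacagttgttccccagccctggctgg
Treml4: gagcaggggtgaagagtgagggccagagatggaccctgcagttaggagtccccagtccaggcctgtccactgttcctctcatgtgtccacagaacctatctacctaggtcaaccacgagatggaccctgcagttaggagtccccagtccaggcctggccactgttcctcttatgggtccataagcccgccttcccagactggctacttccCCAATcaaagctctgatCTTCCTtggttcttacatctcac
Adgre4: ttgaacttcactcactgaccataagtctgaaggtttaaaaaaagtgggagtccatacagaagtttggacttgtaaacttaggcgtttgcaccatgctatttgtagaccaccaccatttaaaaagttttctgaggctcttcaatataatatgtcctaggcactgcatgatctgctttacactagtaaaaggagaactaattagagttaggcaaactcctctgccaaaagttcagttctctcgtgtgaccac
The searched letters were the octamer ATGCAAAT of POU2 factors, the NR4A element AAAGGTCA, the C/EBP palindrome TTGCGCAA, the PU box GAGGAAGT, the CACCC box CCACACCC, the TATA box TATAAA, the ETS core AGGAAG, the CCAAT box and the GC box GGGCGG. The ETS core lies within the PU box. The *Pou2f2* promoter held 2 GC boxes, which 32.7% of the 32851 promoters of the same length contain at least once. That of *Treml4* held an ETS core, present in 29.5% of all promoters, and a CCAAT box, present in 33.8%. The *Adgre4* promoter, with 39.6% G and C, held none of the 9 motifs. The other members lie at chr15:101253902-101274795 (*Nr4a1*, plus strand), chr11:105967948-105989964 (*Ace*, plus strand), chr9:120048683-120068296 (*Cx3cr1*, minus strand), chr2:167688915-167690432 (*Cebpb*, plus strand) and chr11:70653125-70662513 (*Eno3*, plus strand). None of the 9 promoters of the 8 genes (*Ace* has 2) contained the octamer, NR4A, C/EBP, PU box or CACCC letters, which 1.6%, 1.34%, 0.164%, 2.44% and 3.2% of all promoters contain. The upstream promoter of *Ace* was the only one of them with TATA box letters, which 12.4% of all promoters contain on either strand. The letters lay 31 to 26 bases before the start as the reverse complement, TTTATA on the strand of the gene.

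Among the transcription factors, *Pou2f2* had the largest difference between IMQ-treated and control mice in both tissues. In skin, its normalized counts were 134, 268 and 105 in the controls and 2155, 1140 and 1315 after IMQ. Each IMQ-treated library lay above each control, at a log2 fold change of 3.19 ± 0.42 (SE), or 9.11-fold, and of 3.68 without control replicate 2. In small intestine the controls had 156, 230 and 270 normalized counts and the IMQ-treated mice 4228 and 3066, again without overlap, at a log2 fold change of 4.06 ± 0.25, or 16.6-fold. The related factors *Pou2f1* and *Pou2f3* and the B-cell coactivator *Pou2af1* were not called in either tissue. Their log2 fold changes were -0.14 ± 0.14, -0.18 ± 0.24 and 1.60 ± 0.77 in skin and -0.18 ± 0.15, -0.31 ± 0.66 and -0.16 ± 0.20 in small intestine. *Pou2f2* is also a B cell gene, and 0 of 8 B cell markers were called in small intestine, with 1 of them at an unadjusted p under 0.05 and 1 called by DESeq2. The marker with the unadjusted p under 0.05 was *Cd79b*, named there after its values were seen. It was higher after IMQ without overlap (1.20 ± 0.27, adjusted p = 0.0765). The median log2 fold change of the 8 there was -1.3. The summed FPKM of the 8 there was 12.2 to 23.7 in controls and 15.8 to 19.4 after IMQ. In skin, 2 of the 4 B cell markers tested were called, the signalling genes *Cd79b* (3.42 ± 0.43, adjusted p = 0.00849) and *Blk* (5.10 ± 0.49, adjusted p = 0.0042). Of the 2 tested but not called, 1 went the other way, at -3.83 ± 1.05 (adjusted p = 0.0812). There the defining marker *Cd79a* had means of 6.44 normalized counts in controls and 6.94 after IMQ, with overlap. The summed FPKM of the 8 B cell markers in skin was 1.26 to 2.42 in controls and 9.63 to 20.7 after IMQ. Most of the latter was *Blk* (4.81 to 15.4 FPKM) and *Cd79b* (4.25 to 4.98 FPKM). The part of B cells in the *Pou2f2* values was not tested.

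*Nr4a1*, an orphan nuclear receptor induced within minutes of stimulation, had 1195, 1792 and 1374 normalized counts in control skin and 4702, 2250 and 1687 after IMQ. The groups overlapped, because IMQ replicate 6 lay below control replicate 2, and the log2 fold change was 0.99 ± 0.38. Without IMQ replicate 4 it was 0.44. That library also had the highest summed FPKM of 10 other immediate early genes, 852 against 243 to 395 in the other 5 skin libraries, and its part in the difference was not tested. In small intestine *Nr4a1* had 281, 219 and 290.0 normalized counts in controls and 361 and 522 after IMQ, which did not overlap, at 0.75 ± 0.24. Its paralogs *Nr4a2* and *Nr4a3* were not called in either tissue, at log2 fold changes of 0.32 ± 0.22 and 0.26 ± 0.28 in skin and -0.06 ± 0.22 and -0.46 ± 0.33 in small intestine. *Nr4a1* is also an immediate early gene, and of these 10 immediate early genes 1 rose in skin, *Atf3* (1.98 ± 0.30, adjusted p = 0.016), and 0 passed in small intestine, where 1 had an unadjusted p under 0.05 and 1 was called by DESeq2. *Egr1*, an immediate early gene named after its values were seen, was at 0.71 ± 0.57 in skin and -0.56 ± 0.42 in small intestine.

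*Cebpb* had 3066, 2789 and 3691 normalized counts in control skin and 4852, 3737 and 3378 after IMQ, with overlap (0.33 ± 0.17). In small intestine it had 580, 618 and 555 in controls and 913 and 1293 after IMQ, without overlap (0.92 ± 0.19, or 1.89-fold). An exon of *Cebpb* shares 312 bases with *Tmem189* on the other strand, and whether the counts used strand is not given in the sources used here. Among the other C/EBP factors, *Cebpd* rose in skin (1.83 ± 0.21, adjusted p = 0.00699) and had 0.04 ± 0.32 in small intestine. *Cebpa* and *Cebpg* were not called in either tissue.

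Of the surface receptors, *Treml4* and *Adgre4* stood out in small intestine. *Treml4* had 206, 108 and 165 normalized counts in control small intestine and 1237 and 1204 after IMQ, at a log2 fold change of 2.93 ± 0.27, or 7.64-fold. In skin it had 2.71, 18.5 and 6.97 in controls and 63.4, 109.0 and 78.5 after IMQ (3.18 ± 0.59). The groups of *Treml4* did not overlap in either tissue, although the highest control skin was replicate 2, and without it the log2 fold change was 4.07. Of the 5 other TREM receptors measured, 2 were tested in each tissue and 0 were called, with 0 at an unadjusted p under 0.05 and 0 called by DESeq2. *Trem1*, an amplifying receptor of neutrophils and monocytes, was not tested in skin because a library had no count, and it had means of 7.99 ± 8.81 normalized counts in control skin and 196 ± 81.3 after IMQ (SD, n = 3 each). *Trem3*, a further activating receptor of the family named after its values were seen, was not tested in either tissue for the same reason. It had no count in control skin and a mean of 47.1 ± 23.7 normalized counts after IMQ (SD, n = 3 each), and 6.72 ± 7.07 (SD, n = 3) in control small intestine against 114 ± 12.6 (SD, n = 2) after IMQ, without overlap in either tissue.

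*Adgre4* had 194, 164 and 109.0 normalized counts in control small intestine and 1196 and 1007 after IMQ, without overlap, at a log2 fold change of 2.82 ± 0.26, or 7.08-fold. In skin it had 167, 344 and 82.8 in controls and 355, 322 and 275 after IMQ, so that control replicate 2 lay within the IMQ-treated group (0.69 ± 0.48). Without that library the value was 1.34. Of the other EGF-TM7 receptors, *Adgre1* (F4/80), a macrophage marker, rose in skin (2.88 ± 0.32, adjusted p = 0.00625) and in small intestine (2.16 ± 0.22, adjusted p = 0.00231). *Adgre5* (CD97), which is carried by most leukocytes, rose in small intestine (0.90 ± 0.15, adjusted p = 0.0247) and had 0.72 ± 0.20 in skin (adjusted p = 0.0843).

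*Cx3cr1* behaved unlike the other receptors in small intestine, with 1502, 1012 and 963 normalized counts in controls and 888 and 1220 after IMQ, which overlapped (-0.14 ± 0.24, and 0.10 without control replicate 7). An antisense gene, *Gm33858*, shares 78 exonic bases with *Cx3cr1*. In skin it had 149, 275 and 146 in controls and 367, 264 and 447 after IMQ, with overlap through control replicate 2 (0.92 ± 0.33, and 1.28 without that library). Its ligand *Cx3cl1* was at -0.54 ± 0.15 in skin (adjusted p = 0.0836) and 0.04 ± 0.18 in small intestine (adjusted p = 0.964). Of 9 genes for monocyte ligands and survival signals, 1 was called in skin, the chemokine *Ccl7* (1.58 ± 0.31, adjusted p = 0.0315). None of the 8 tested was called in small intestine by edgeR, with 2 at an unadjusted p under 0.05 and 1 called by DESeq2. *Csf1r*, the receptor of the monocyte survival factor CSF1, had 0.40 ± 0.22 in skin and 0.38 ± 0.23 in small intestine.

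The enzymes *Ace* and *Eno3* followed the tissue more than the treatment. *Ace* had 2417, 2792 and 2633 normalized counts in control skin and 5784, 3766 and 6194 after IMQ, without overlap, at a log2 fold change of 1.01 ± 0.20, or 2.01-fold. In small intestine it had 85013, 98785 and 98388 in controls and 107688 and 87250 after IMQ, which overlapped (0.05 ± 0.23). Endothelium also carries *Ace*, and in skin 3 of 6 endothelial markers rose, among them *Pecam1* (1.16 ± 0.15, adjusted p = 0.00996). The summed FPKM of the 6 was 38.5 to 47.1 in control skin and 69.1 to 93.5 after IMQ. It was 23.2 to 33.6 and 53.7 to 64.6 in control and IMQ-treated small intestine, where 1 of 6 was called, again *Pecam1* (1.84 ± 0.14, adjusted p = 0.000668). Most of that intestinal difference was *Pecam1* itself, at 8.66 to 11.2 FPKM in controls and 31.7 to 37.7 after IMQ. The median log2 fold change of the 6 there was 0.53. The part of endothelium in the *Ace* values was not tested. The 10 brush border genes summed to 6552 to 11409 FPKM in control small intestine and 16192 to 20664 after IMQ, with 0 of 10 called, 4 at an unadjusted p under 0.05 and 1 called by DESeq2. The higher sums were those of *Apoa4* and *Fabp1*, without which the other 8 genes summed to 3947 to 4760 FPKM in controls and 3887 to 4356 after IMQ. In control skin replicate 2, a share of 1.23% of the intestinal level would equal 4.06 FPKM of its 10.0 FPKM of *Ace*, and without this library the skin value was 1.06. An antisense gene, *Gm11651*, overlaps exons of *Ace* by 295 bases.

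*Eno3* had 18376, 28863 and 20779 normalized counts in control skin and 15449, 15047 and 28618 after IMQ, with overlap (-0.20 ± 0.30, and 0.01 without control replicate 2). The libraries with the most *Eno3*, control replicate 2 and IMQ replicate 6, were also those with the most muscle RNA. *Eno3* amounted to 5.18% to 5.66% of the summed FPKM of 10 skeletal muscle genes in every skin library, while that sum ranged from 3071 to 6276. In small intestine *Eno3* had 798, 1075 and 1249 normalized counts in controls and 932 and 642 after IMQ (-0.40 ± 0.24). The muscle genes summed to 4.54 to 9.77 FPKM there, and *Eno3* amounted to 73.3% to 157% of that sum. Its intestinal level was thus not in the proportion to muscle genes seen in skin. None of the 10 muscle genes tested in skin or the 6 tested in small intestine was called by edgeR or by DESeq2, with 0 at an unadjusted p under 0.05 in each. Of the other enolases, *Eno1b* was called in skin (0.61 ± 0.13, adjusted p = 0.0419), and 0 of 3 were called in small intestine, with 0 at an unadjusted p under 0.05 and 0 called by DESeq2. *Eno1* and *Eno1b* are near-identical copies whose reads the counting may have divided.

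**Figure D2:**
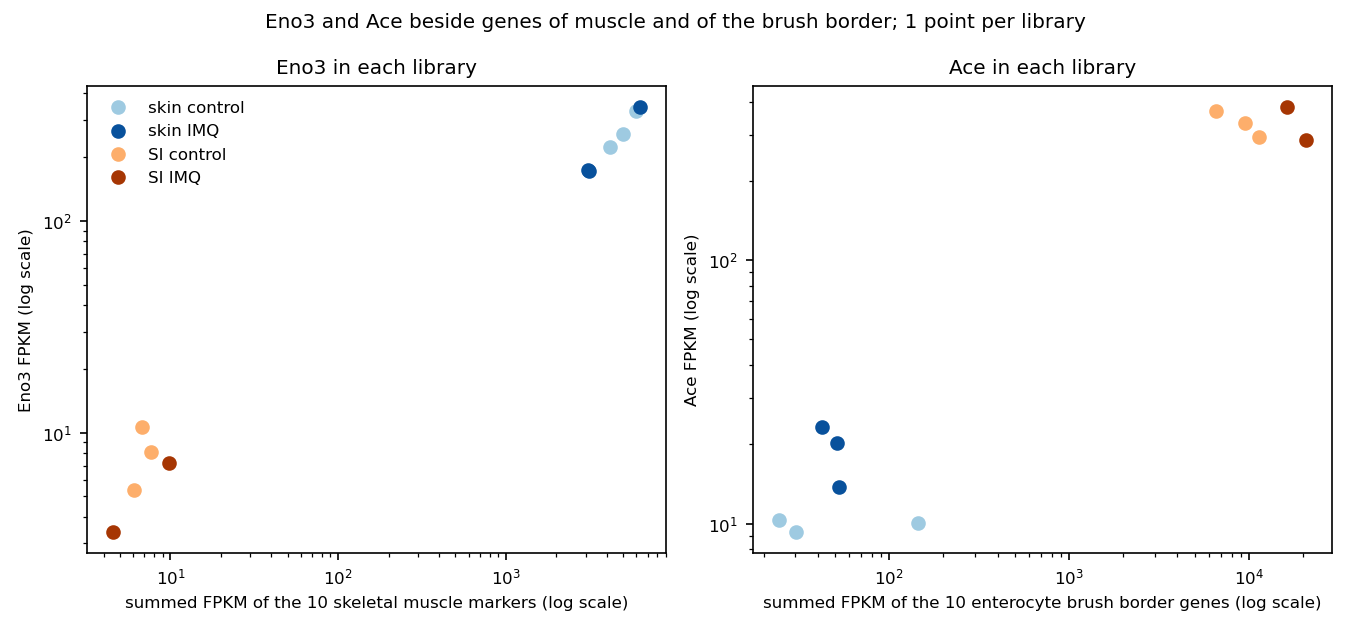
*Eno3* against the summed FPKM of 10 skeletal muscle genes (left) and *Ace* against that of 10 brush border genes (right), on log axes with 1 point per library coloured by group. *Eno3* stayed at 5.18% to 5.66% of the muscle sum in all 6 skin libraries. After IMQ, *Ace* in skin was at 13.7 to 23.2 FPKM, at brush border sums of 42.2 to 52.4 FPKM. In control skin *Ace* was at 9.27 to 10.3 FPKM, at sums of 30.2, 145 and 24.4 FPKM (replicates 1 to 3).

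Across the 8 genes, 3 were called higher in skin after IMQ (*Pou2f2*, *Treml4* and *Ace*), where 4.05% of the 20512 genes tested were called higher and 6.74% in either direction. The same number was called higher in small intestine (*Pou2f2*, *Treml4* and *Adgre4*), where 2.77% of 19965 genes were called higher and 2.95% in either direction. Groups did not overlap for 3 of the 8 in skin and 5 of the 8 in small intestine, all of them higher after IMQ, and 15.1% of all genes tested were higher without overlap in each tissue. The genes were picked knowing these contrasts, so nothing is read from these shares. The median log2 fold change of the 8 was 0.95 in skin and 0.83 in small intestine, against -0.01 and -0.02 over all genes tested. The count in skin moved with single libraries. With 1 library left out, 0 of the 8 genes were called without control replicate 1, 1 without control replicate 3, IMQ replicate 4 or IMQ replicate 6, 2 without IMQ replicate 5, and 4 without control replicate 2.

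**Figure D3:**
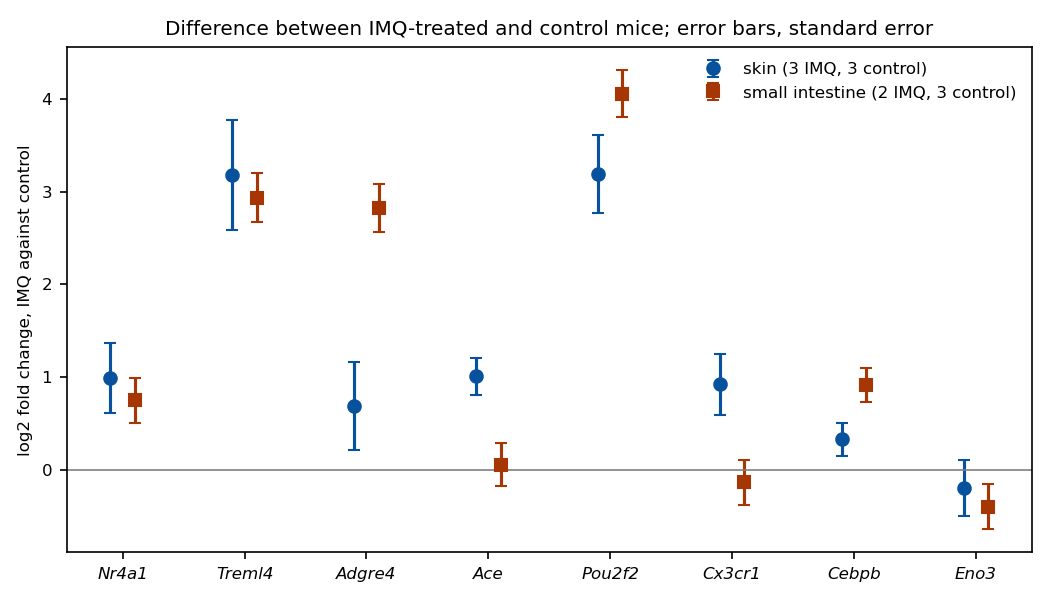
Log2 fold change of IMQ-treated against control mice for the 8 genes in skin (circles) and small intestine (squares), with bars for the standard error. *Pou2f2* and *Treml4* lay at 2.93 or above in both tissues, *Adgre4* at 0.69 in skin and 2.82 in small intestine, and *Eno3* below 0 in both.

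**Figure D4:**
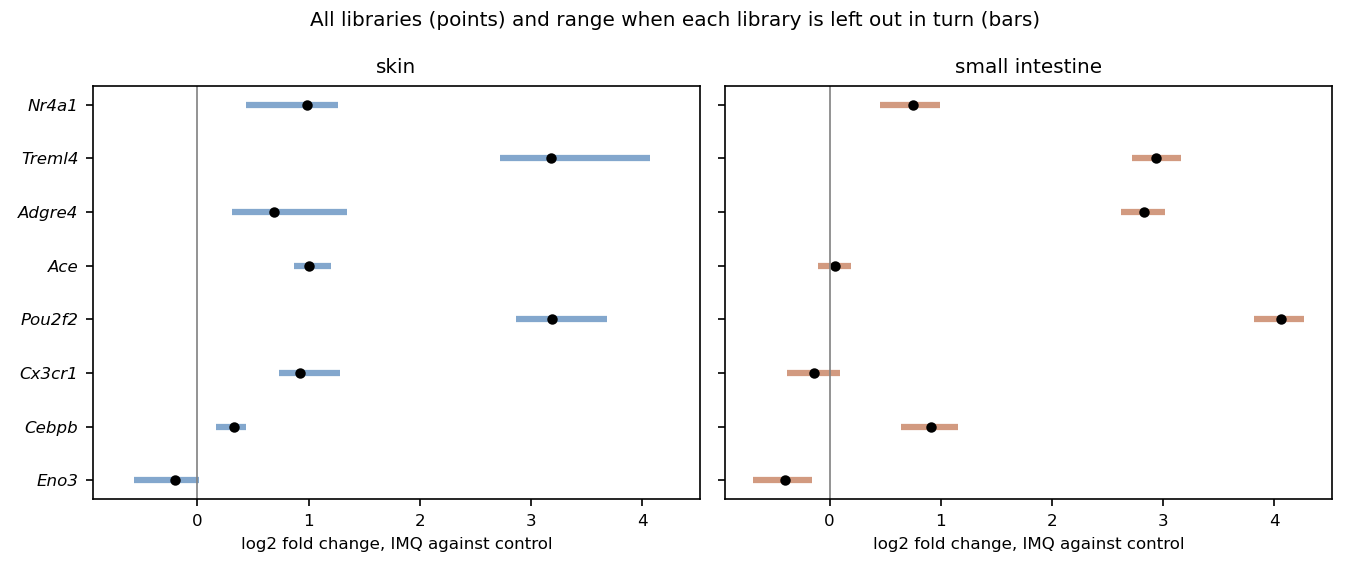
Log2 fold change of each of the 8 genes with all libraries (points) and the range over fits that leave out each library in turn (bars), for skin (left) and small intestine (right). In skin the bar of *Treml4* ran from 2.72 to 4.07 and that of *Adgre4* from 0.31 to 1.34, and in small intestine that of *Pou2f2* from 3.81 to 4.27.

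The response to IMQ of small intestine minus that of skin was estimated in one model of all 11 libraries. It was 2.15 ± 0.62 on the log2 scale for *Adgre4*, 0.88 ± 0.54 for *Pou2f2*, 0.60 ± 0.26 for *Cebpb*, -0.19 ± 0.44 for *Eno3*, -0.23 ± 0.51 for *Nr4a1*, -0.25 ± 0.62 for *Treml4*, -0.95 ± 0.31 for *Ace* and -1.05 ± 0.46 for *Cx3cr1*. Without control skin replicate 2 it was 1.47 for *Adgre4*, 0.36 for *Pou2f2* and -1.15 for *Treml4*. These values describe genes that were chosen on the same libraries, and no test is read from them. Over all genes, 2.55% of 18108 were called in this model.

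Other genes used to describe Ly6C-low monocytes, 12 in all, were then followed. In small intestine 8 of the 11 tested rose after IMQ and 0 fell, with a median log2 fold change of 1.44 over the 11. *Cd300e*, an activating receptor of monocytes, rose 179-fold, from a mean of 34.6 ± 3.54 normalized counts (SD, n = 3) to 6183 ± 179 (SD, n = 2), at a log2 fold change of 7.48 ± 0.15 (adjusted p = 4.8e-06). *Fcgr4*, an activating IgG receptor, rose by 5.36 ± 0.23 (adjusted p = 1.4e-04), the lectin *Clec4a3* by 5.31 ± 0.18 (adjusted p = 7.3e-05) and *Itgax*, which encodes CD11c, by 2.82 ± 0.17 (adjusted p = 3.8e-04). The other 4, *Ear2*, *Gngt2*, *Spn* (CD43) and *Itgal* (CD11a), lay between 1.25 and 2.13. *Gngt2*, *Spn* and *Itgal*, and *Ear2* in this tissue, are named after their values were seen. In skin 4 of 11 rose, *Fcgr4* (3.43 ± 0.50, adjusted p = 0.0131, and 4.24 without control replicate 2), *Itgal* (2.51 ± 0.27, adjusted p = 0.00513), *Clec4a3* (2.20 ± 0.20, adjusted p = 0.00362) and *Spn* (1.72 ± 0.27, adjusted p = 0.0164). *Ear2*, an eosinophil-associated ribonuclease with near-identical copies in the genome, fell in skin (-3.25 ± 0.45, adjusted p = 0.0116). *Cd300e* was not tested in skin because 2 control libraries had no count, and its FPKM was 0, 0.302 and 0 in controls and 18.3, 13.1 and 15.2 after IMQ. Both counts, and those of the other gene lists, stand beside 2.77% of all genes called higher in small intestine and 4.05% called higher and 2.69% lower in skin. This list and the other gene lists were also chosen with earlier results of these data known, so nothing is read from these shares.

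Of the classical Ly6C-high genes, 3 of 10 rose in skin, among them *Chil3* (4.87 ± 0.48, adjusted p = 0.00432) and *Mmp8* (3.49 ± 0.36, adjusted p = 0.00456), the latter also expressed by neutrophils. In small intestine 1 of 8 tested rose, *Mmp8* (1.83 ± 0.35, adjusted p = 0.0425), at a mean of 14.7 normalized counts. It was called in 0 of 5 fits that leave out a library, at adjusted p of up to 0.198, and under 1 of 7 other alternatives. *Ly6c2*, which encodes the Ly6C antigen that divides the subsets, was at 0.18 ± 0.21 in skin (adjusted p = 0.668) and -0.52 ± 0.34 in small intestine (adjusted p = 0.65). *Ccr2*, the receptor by which classical monocytes leave the marrow, was at 0.87 ± 0.22 in skin (adjusted p = 0.0614) and 0.66 ± 0.27 in small intestine (adjusted p = 0.371).

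**Figure D5:**
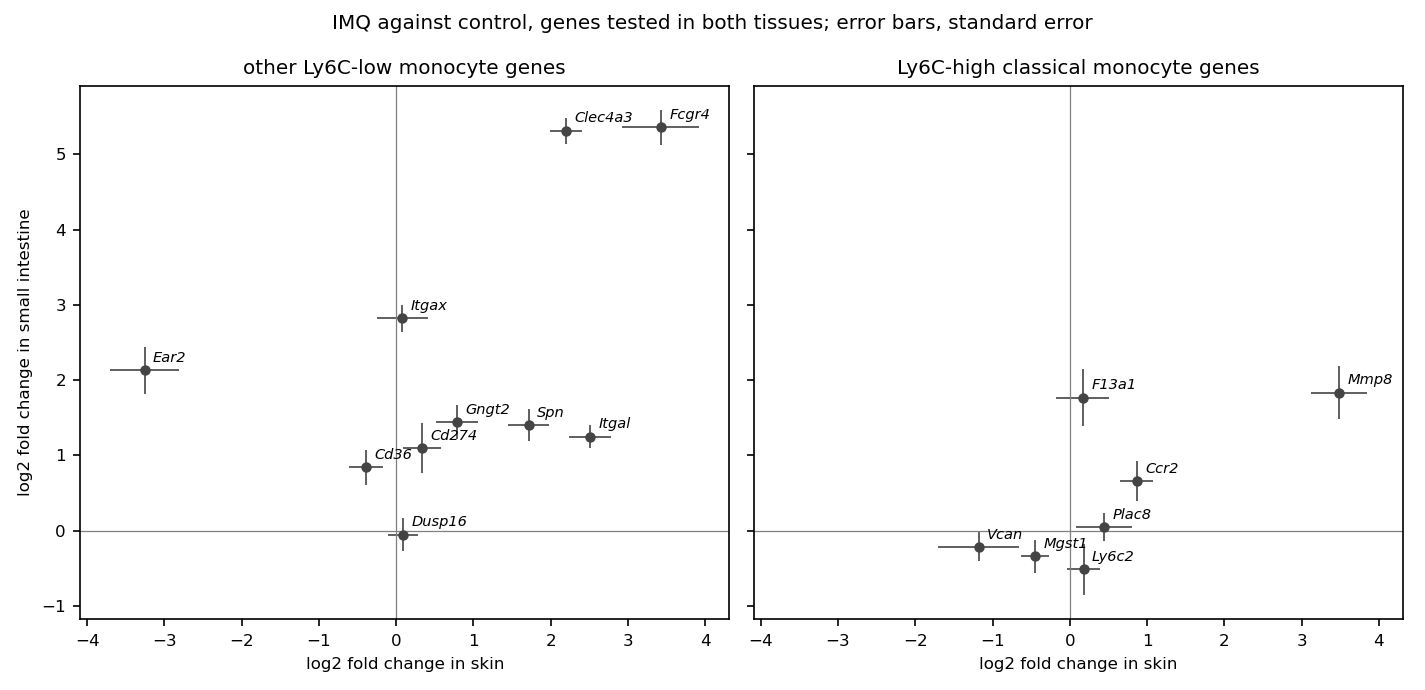
Log2 fold change of IMQ-treated against control mice in skin (horizontal) and small intestine (vertical) for other Ly6C-low genes (left) and classical Ly6C-high genes (right) that were tested in both tissues and are reported here, with bars for the standard error. *Fcgr4* and *Clec4a3* were above 5 in small intestine, *Itgax* was near 0 in skin, and *Ear2* was below 0 in skin and above 0 in small intestine.

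Among 10 transcriptional regulators of monocytes, 3 rose in each tissue. *Spi1*, which encodes the myeloid factor PU.1, rose by 1.25 ± 0.16 in skin (adjusted p = 0.00961) and by 2.43 ± 0.24 in small intestine (adjusted p = 0.00176). *Klf2*, a factor upstream of *Nr4a1* in Ly6C-low cells, rose by 0.75 ± 0.17 (adjusted p = 0.0485) and 1.05 ± 0.20 (adjusted p = 0.0385), and it was not called in 5 of 6 skin fits and 5 of 5 intestinal fits that leave out a library, at adjusted p of up to 0.168 and 0.271. The third was *Cebpd* in skin and the receptor *Notch2* in small intestine (0.96 ± 0.12, adjusted p = 0.00665). Among the called list genes followed under the alternatives, 11 of 19 in skin and 10 of 19 in small intestine were called in every fit that leaves out a library. Skin calls were lost without control replicate 1 (*Spn*, *Fcgr4*, *Spi1*, *Klf2*, *Ccl7*, *Atf3* and *Eno1b*, at adjusted p of at most 0.17) or without IMQ replicate 5 (the same without *Spi1* and with *Ear2*), and *Spn*, *Klf2*, *Ccl7* and *Eno1b* lost theirs without other libraries too. In small intestine the calls of *Spn*, *Itgal*, *Ear2*, *Gngt2*, *Mmp8*, *Klf2*, *Notch2* and *Adgre5* were lost without IMQ replicate 11, and that of *Timd4* without control replicate 9, at adjusted p of at most 0.271. Other libraries ended calls there too, so that *Mmp8* and *Klf2* lost theirs in 5 of 5 fits, *Adgre5* in 4, *Gngt2* in 3, and *Spn*, *Ear2* and *Notch2* in 2.

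Markers of other cells moved with IMQ as well. Their counts stand beside 4.05% of all genes called higher in skin and 2.77% in small intestine. These lists too were chosen with earlier results known, so nothing is read from the shares. Of 10 macrophage markers, 5 rose in skin and 6 in small intestine, among them the complement gene *C1qb* (1.59 ± 0.19, adjusted p = 0.00713, and 2.83 ± 0.23, adjusted p = 8.6e-04). *Timd4*, a marker of resident macrophages, fell in small intestine (-3.44 ± 0.52, adjusted p = 0.0142). The summed FPKM of the 10 was 218 to 355 in control skin and 610 to 836 after IMQ, and 135 to 193 and 726 to 809 in control and IMQ-treated small intestine. Of 8 neutrophil markers, 5 were tested in skin and all 5 were called higher. The others were not tested because a library had no count, and their IMQ-treated and control groups overlapped. The sum of all 8 went from 13.5 to 14.97 FPKM in controls to 7035 to 8586 after IMQ. A few genes of the list, not reported here by name, carried nearly all of that sum, of which *Csf3r* was 17.8 to 20.4 FPKM. The size of the sum is therefore not read as neutrophil number. In small intestine 1 of 4 was called, the cytokine receptor *Csf3r* (3.21 ± 0.23, adjusted p = 4.9e-04), and the sum was 7.15 to 8.10 FPKM in controls and 14.8 to 15.6 after IMQ. Of 6 dendritic cell markers, 0 were called in skin, with 0 at an unadjusted p under 0.05 and 0 called by DESeq2. In small intestine 1 was called, *Xcr1*, which rose (1.15 ± 0.23, adjusted p = 0.0457). This call was not followed in the fits that leave out a library. Of the 3 with an unadjusted p under 0.05 there, those other than *Xcr1* were lower after IMQ and were not called. Of 6 NK cell markers, 0 were called in skin, with 1 at an unadjusted p under 0.05 and 0 called by DESeq2, and 1 in small intestine, *Klrb1c*, named after its values were seen. None of the lists is specific to one cell type in whole tissue, and the part of macrophages and neutrophils in the values of the 8 genes was not tested.

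For each of the 8 genes, the genes with the closest profile over the 11 libraries were sought among 16329 genes with a mean of at least 50 normalized counts. The measure was the root mean square difference of the centred log2 normalized counts, which is a description over libraries that share tissue and treatment. *Eno3* lay nearest to *Stac3* (0.12), *Srl* (0.17) and *Pfkm* (0.236), which are genes of skeletal muscle, although its own spread over the libraries was 2.09. *Pou2f2* lay nearest to *Cd72* (0.375), *Pik3ap1* (0.512) and *Sh2d1b1* (0.512), and *Adgre4* to *Tlr9* (0.356), *Themis2* (0.424) and *Mpeg1* (0.449). The nearest genes to *Treml4* were farther away, *Trpm2* at 0.634, *Gpr31b* at 0.771 and *Klra2* at 0.914. *Nr4a1* was nearest to *Ier3* (0.308), *Cebpb* to *Def6* (0.223), *Cx3cr1* to *Gimap1* (0.279) and *Ace* to *Slc7a7* (0.27). Between the members themselves the difference ranged from 0.413 (*Nr4a1* and *Cebpb*) over 1.04 (*Adgre4* and *Pou2f2*) to 4.6 (*Ace* and *Eno3*), and no member was among the 3 nearest genes of another.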

How the data were processed

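RNA of skin and small intestine was sequenced as 100-bp paired-end reads from stranded mRNA libraries. Per the labels, the authors used bcl2fastq 2.20.0, Trimmomatic, HISAT2 2.1.0 with mm10 and StringTie 2.1.3b. They deposited whole-number counts for each gene without normalization, together with FPKM and TPM that the authors computed. The deposited TPM was not used. How counts were made from the StringTie output, and the handling of strand and of reads matching several genes, is not given in the sources used here, so overlapping genes and near-identical copies are uncertain. Libraries held 44995414 to 58526384 counts, so the spread between libraries limits precision for most genes, and depth for *Treml4* in control skin.

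Genes with a count of 0 in any library of a comparison were left out, and the rest were normalized by relative log expression and tested with edgeR 4.0.16 (R 4.3.3, quasi-likelihood, Benjamini-Hochberg adjusted p under 0.05 over all genes). The standard error is the log2 fold change divided by the square root of F. Normalized counts were scaled to the tissue's mean effective library size. Skin, small intestine, the control tissues and the difference of the responses were fitted separately, and the fit of the control tissues shares its libraries with the others. As alternatives, DESeq2 1.42.0, normalization by TMM or the upper quartile, filterByExpr, no filter, limma 3.58.1 on log2(FPKM + 0.01) and log2(FPKM + 1), 1 fit of all 11 libraries, and fits without each library were run. The scripts were tested on simulated counts. The labels do not state which samples are separate animals or which tissues share a mouse, so p-values measure the spread between these samples. The members and the gene lists were chosen with earlier results of these data known. Named genes are all 8 members, up to 4 genes of each list and tissue with the largest log2 fold change at a mean of at least 50 normalized counts, genes of the members' families, and the 3 genes nearest to each member. Some genes of the lists are counted but not reported here by name. The control-tissue comparison uses no IMQ-treated library. Promoters and positions are from RefSeq (GRCm38.p6), and 3 of the 9 motifs were added after a first search.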

Additional observations from a re-analysis of the deposited data

Results flagged for a closer look

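The response to IMQ differed between small intestine and skin for 7 list genes followed here, in the model of all 11 libraries with edgeR's quasi-likelihood test. The difference of the log2 fold changes, small intestine minus skin, was 3.12 ± 0.28 for *Clec4a3* (adjusted p = 6.0e-04). For *Itgax* it was 2.75 ± 0.44 (adjusted p = 0.00995), and without IMQ replicate 10 of the small intestine the adjusted p was 0.0523. *Ear2*, which fell in skin and rose in small intestine, had 5.4 ± 0.60 (adjusted p = 0.00178). *Cd68*, a lysosomal macrophage marker, had 1.97 ± 0.29 (adjusted p = 0.00668). *Klrb1c*, a receptor of NK cells, had 2.92 ± 0.55 (adjusted p = 0.0217), which was not called in 4 of 11 fits that leave out a library (without IMQ replicate 4 or 5 of the skin, or control replicate 9 or IMQ replicate 10 of the small intestine), at an adjusted p of up to 0.108. *Notch2* had 1.22 ± 0.27 (adjusted p = 0.042), which held in 2 of 11 fits that leave out a library, at an adjusted p of up to 0.134. The response was smaller in small intestine for *Blk*, at -4.88 ± 0.86 (adjusted p = 0.0153), which was not called without IMQ replicate 10 or 11 of the small intestine, at an adjusted p of up to 0.0908.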

How the results depend on the processing

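The number of genes called in skin, 1382, was 3030 with DESeq2, 894 with limma on log2(FPKM + 1) and 258 to 2521 when a library was left out (258 without IMQ replicate 5 and 2521 without control replicate 2). In small intestine, 588 became 1206 with DESeq2 and 294 to 801 when a library was left out. For the difference of the responses, 462 became 1281 with DESeq2, 301 without a filter and 144 to 1072 when a library was left out. Of the 8 genes, 0 to 4 were called in skin when a library was left out, and for the difference of the responses 2 with DESeq2, 2 with limma on log2(FPKM + 1) and 0 to 1 when a library was left out, against 0. The counts of the 8 genes after IMQ describe genes chosen on these contrasts. The causes were not tested. Between the control tissues, 50.5% of the called genes were higher in small intestine, but 28.7% and 28.8% with limma on log2(FPKM + 0.01) and log2(FPKM + 1), where the median of all genes moved to -0.45 and -0.23, and to -0.14 with upper quartile normalization. The 6 members called there kept their direction and their call under all 7 alternatives, and *Adgre4*, which was not called, ranged from -0.41 to 0.66 when a library was left out. *Treml4* in skin had the lowest value, 0.73, with a pseudocount of 1 FPKM, which exceeds its level there. With 2 or 3 libraries a group and 1 left out, the lone library is assumed to vary like the others. No paired analysis was possible because the labels do not state which tissues share a mouse.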

Other observations

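The length of transcript implied by count and FPKM, in kilobases, was steady over all libraries for 4 of the 8 genes, at 1.70 to 1.71 for *Cebpb*, 3.93 to 3.95 for *Adgre4*, 4.22 to 4.25 for *Cx3cr1* and 5.55 to 5.62 for *Ace*. It was 2.79 to 3.21 for *Nr4a1* and 1.97 to 3.51 for *Treml4*, whose highest value was in control skin. For *Eno3* it was 1.75 to 1.78 in the 6 skin libraries and 2.20 to 3.44 in the 5 intestinal ones, without overlap. The ratio of control small intestine to control skin was 1.47, and 0.128% of 11762 genes with 100 or more counts per library had one at least as large. *Pou2f2* varied between libraries as well, from 6.18 to 9.59, with the highest values in control skin. Which transcripts give these lengths was not examined.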
